A study of Mus musculus with 20 samples.

Results

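The renin-angiotensin and adrenergic receptor genes considered here are 8 mouse genes, Ace, Agt, Agtr1a, Agtr1b, Agtr2, Adrb1, Adra1a and Adra1b, and every array probe annotated with 1 of these symbols was taken whatever its value. In the table used here, 6 of the 8 genes had a probe, with 9 of 45281 probes in all. Agt, Agtr1a, Agtr1b and Agtr2 had 1 probe each, Adra1b had 2 and Ace had 3. Adrb1 and Adra1a were not analysed here, since no probe of the annotation used names them. RNA came from left ventricular tissue of male mice 4 weeks after surgery at an age of 10 to 12 weeks. There was 1 bead array per mouse. TAC DKO (6 mice) and Sham DKO (4 mice) were double knockouts with homozygous floxed Dnmt3a and Dnmt3b alleles and a Cre recombinase transgene. TAC CTL (6 mice) and Sham CTL (4 mice) were the controls, which per the methods carried the same floxed alleles without Cre. Cre was driven by the promoter of the atrial myosin light chain gene, which limits the deletion to cardiomyocytes. The RNA came from all cells of the left ventricular tissue. TAC is transverse aortic constriction, which loads the left ventricle with pressure, and sham surgery is its control.

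Angiotensinogen, the product of Agt, is cleaved by renin and then by the angiotensin-converting enzyme, the product of Ace, to angiotensin II. Angiotensin II raises blood pressure and drives growth of the loaded heart through type 1 receptors, which mice carry as Agtr1a and Agtr1b, while the type 2 receptor Agtr2 is abundant before birth. Noradrenaline from sympathetic nerves acts on cardiomyocytes through the beta-1 receptor Adrb1 and the alpha-1 receptors Adra1a and Adra1b. The floxed enzymes Dnmt3a and Dnmt3b place new methyl groups on CG dinucleotides.

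A few facts of the series bear on the results. The deposited intensities of the 8 sham and the 12 TAC arrays had been normalized as separate sets, so that all 20 arrays were quantile normalized together here, and the surgery and the normalization set cannot be told apart. As deposited, the median intensity was 58.61 on TAC and 47.52 on sham arrays, and the median over all probes of the fitted log2 difference was 0.29 between TAC DKO and Sham DKO and 0.28 between TAC CTL and Sham CTL hearts. Probes of 3 groups of sensory receptor genes (olfactory, vomeronasal and taste) served as background, with the 95th percentile of 1545 such probes at an intensity of 59.91 (median over arrays). The array of Sham CTL mouse 4 stood apart, with a mean correlation of 0.976 with its group, against 0.9867 or more for the other 19 arrays. The load marker Acta1 was higher after TAC by 1.80 on the log2 scale in DKO and by 2.26 in CTL hearts. Of 11 load markers with a probe, 5 were called (as defined below) higher and 1 lower in DKO hearts. In CTL hearts 7 were called higher and 1 lower. Nppb had 0.48 in DKO hearts (limma adjusted p = 0.0819, not called) and 0.80 in CTL hearts. Nppa had 1.32 and 2.24. It was also higher in Sham DKO than in Sham CTL hearts, by 1.18, which was not called (limma adjusted p = 0.482). Of the cardiomyocyte markers with a probe, 11 of 11 lay above background. The 3 probes of Dnmt3a had group means at background, and Dnmt3b probe 1 averaged 110 ± 11.7 in TAC DKO, 105 ± 7.36 in TAC CTL, 101 ± 6.82 in Sham DKO and 112 ± 4.25 in Sham CTL hearts (SD). The position of these probes relative to the deleted exons is not given in the sources used here, so they do not check the deletion.

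Of the 9 probes, those of Agtr1a and Ace probe 1 were above background on 20 of 20 arrays. The other 7 probes lay at or near background. Differences between groups are given below for some of them, but no direction is read from these. Between 0 and 9 of the 20 arrays exceeded background for any of these 7, with Adra1b probe 1 at 9, Agtr2, Ace probe 3 and Adra1b probe 2 at 4 each, Ace probe 2 at 2 and Agt and Agtr1b at 0. Several of their differences between groups changed sign with the scaling, and brightness cannot be compared from one probe to another.

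**Figure D1:**
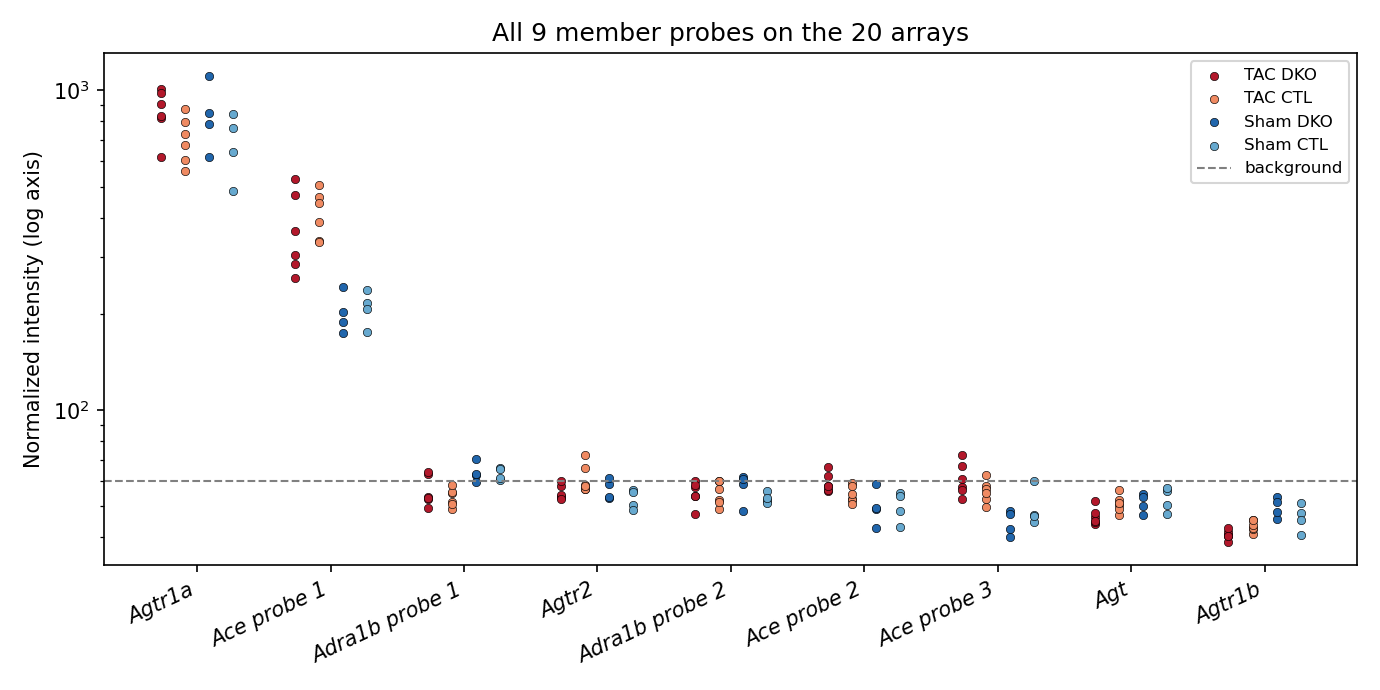
Normalized intensity (log axis) of the 9 probes on the 20 arrays, with 1 point per mouse, coloured by group, and the background of 59.91 as a dashed line. Agtr1a and Ace probe 1 lie above the line on 20 of 20 arrays, and the other 7 probes scatter around or below it.

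Ace, the angiotensin-converting enzyme, a membrane peptidase known from vascular endothelium, was the member that changed. Ace probe 1 was higher after TAC, 1.78-fold in DKO and 1.96-fold in CTL hearts, and no difference between the genotypes passed the test. Ace lies on chromosome 11 (chr11:105967948-105989964, GRCm38.p6), and RefSeq places 2 start sites in it. The windows of 250 bases before to 50 after each start are shown because CG dinucleotides, in capitals, are where the floxed enzymes act. Start 1 covers chr11:105967698-105967997 and start 2 chr11:105974939-105975238, both on the plus strand.
Ace start 1: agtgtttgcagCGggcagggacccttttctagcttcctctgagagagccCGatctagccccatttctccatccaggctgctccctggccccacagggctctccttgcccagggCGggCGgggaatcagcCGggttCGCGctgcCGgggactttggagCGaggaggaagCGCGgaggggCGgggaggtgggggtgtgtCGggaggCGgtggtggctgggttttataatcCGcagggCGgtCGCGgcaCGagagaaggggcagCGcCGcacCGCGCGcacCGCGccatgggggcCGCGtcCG
Ace start 2: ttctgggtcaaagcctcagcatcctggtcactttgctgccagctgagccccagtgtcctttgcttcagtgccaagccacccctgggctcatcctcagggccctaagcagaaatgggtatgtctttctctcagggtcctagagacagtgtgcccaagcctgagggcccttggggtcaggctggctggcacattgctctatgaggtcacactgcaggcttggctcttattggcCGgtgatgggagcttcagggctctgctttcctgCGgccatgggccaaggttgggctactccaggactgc
The window of start 1 held 29 CG and that of start 2 held 2. Of 32851 RefSeq windows of this length, 12.9% held at least 29 CG, 85.9% at least 2 and 94.6% at least 1, with a median of 7. Methylation of these windows was not measured on the arrays, and the start site from which Ace RNA of these hearts came is not known from the probes.

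Ace probe 1 had its lowest, median and highest intensity at 259, 334 and 529 in TAC DKO hearts. The 4 Sham DKO hearts had 188, 243, 174 and 202. All TAC DKO arrays were above all Sham DKO arrays, with means of 369 ± 108 (SD, n = 6) and 202 ± 29.7 (SD, n = 4). The difference was 0.83 on the log2 scale (SE 0.16, 95% interval 0.49 to 1.17, limma adjusted p = 0.00042). In this comparison 2.46% of all probes were called higher and 6.74% in either direction, where a call needs a fold change over 1.5 at an adjusted p under 0.05, and 1 of the 9 member probes was called.

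In TAC CTL hearts Ace probe 1 ran from 336 over a median of 416 to 504. The Sham CTL hearts had 216, 207, 176 and 237. Again all TAC CTL arrays were above all Sham CTL arrays, with means of 413 ± 69.5 (SD, n = 6) and 209 ± 25.1 (SD, n = 4). The difference was 0.97 (SE 0.16, 95% interval 0.63 to 1.31, limma adjusted p = 0.000106), and without Sham CTL mouse 4 it was 1.03. Here 1 of the 9 member probes was called, against 1.76% of all probes called higher and 5.17% called in either direction.

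The size of the Ace difference depended on the scaling. On the deposited values it was 0.68 in DKO and 0.81 in CTL hearts and was called in both, although there the DKO groups overlapped. With each array centred on its median it was 0.37 in DKO hearts (limma adjusted p = 0.0944) and 0.51 in CTL hearts (limma adjusted p = 0.024, fold change 1.43), and neither was called.

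Between genotypes Ace probe 1 differed by -0.20 in TAC hearts (SE 0.15, 95% interval -0.50 to 0.11, limma adjusted p = 0.744). In sham hearts the difference was -0.06 (SE 0.18, 95% interval -0.43 to 0.32, limma adjusted p = 0.996). The arrays of DKO and CTL hearts overlapped in both cases. The interaction, which is the genotype difference in TAC hearts minus that in sham hearts, was -0.14 (95% interval -0.62 to 0.34, limma adjusted p = 0.965). TAC DKO hearts were spread more widely than TAC CTL hearts, with 3 of 6 TAC DKO arrays at 306 or less and 0 of 6 TAC CTL arrays. In order of the means, TAC CTL was followed by TAC DKO, Sham CTL and Sham DKO, and the neighbours TAC CTL and TAC DKO, and Sham CTL and Sham DKO, did not differ beyond their spread.

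**Figure D2:**
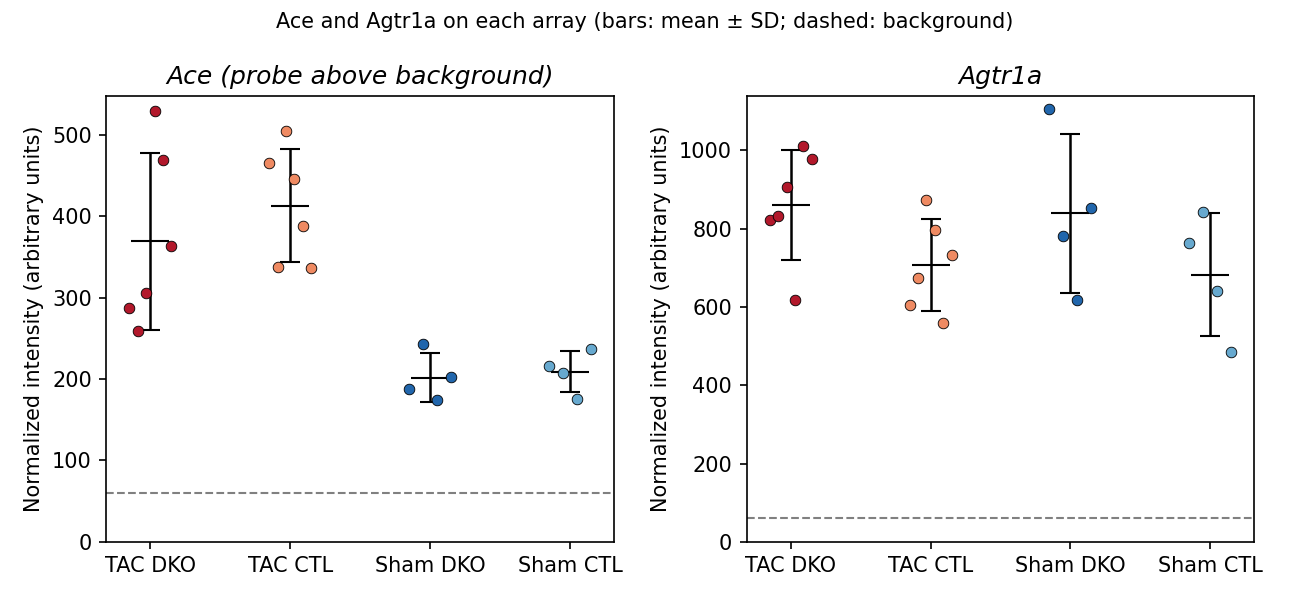
Normalized intensity (linear axis from 0) of Ace probe 1 (left) and Agtr1a (right) on each array, with the mean and SD of each group as bars and background as a dashed line. Ace lies at 259 to 529 on TAC DKO and 336 to 504 on TAC CTL arrays, above the 174 to 243 of Sham DKO and 176 to 237 of Sham CTL arrays, whereas the Agtr1a groups overlap.

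The other Ace probes were dim. Ace probe 3 had its lowest, median and highest value at 52.8, 59.1 and 72.5 in TAC DKO hearts, where 3 of 6 arrays exceeded background, against 40 to 48.4 in the 4 Sham DKO hearts. In TAC CTL hearts it ran from 49.6 to 62.8, against 44.5 to 59.8 in Sham CTL hearts. The DKO groups did not overlap and the CTL groups did, but on the deposited values neither pair overlapped, with differences of 0.75 in DKO and 0.49 in CTL hearts. Ace probe 2 ran from 55.9 to 66.3 in TAC DKO and from 50.7 to 59.2 in TAC CTL hearts, against 42.9 to 58.8 in Sham DKO and 43 to 54.9 in Sham CTL hearts. Its TAC and sham groups overlapped in both genotypes, but on the deposited values they did in neither.

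Ventricular RNA is a mixture, in which fewer cells of a type and less RNA per cell cannot be told apart. The summed intensity of 10 endothelial markers, of which 9 lay above background, was 8057 to 9926 in TAC DKO and 7708 to 10059 in TAC CTL hearts, against 8083 to 9987 in Sham DKO and 9768 to 11464 in Sham CTL hearts. These ranges overlapped between TAC and sham hearts of both genotypes. The sum of 10 smooth muscle and pericyte markers, with 9 above background, was 7001 to 13239 in TAC DKO and 6885 to 11564 in TAC CTL hearts, against 5525 to 6889 in Sham DKO and 6993 to 8849 in Sham CTL hearts. This sum did not overlap between TAC DKO and Sham DKO hearts and did between TAC CTL and Sham CTL hearts. The mean log2 intensity of the same markers was 8.138 to 8.538 in TAC DKO and 8.156 to 8.460 in TAC CTL hearts. In Sham DKO hearts it was 7.794 to 7.977 and in Sham CTL hearts 7.963 to 8.031. By this measure TAC and sham hearts did not overlap in either genotype. The 10 fibroblast markers, all above background, summed to 9543 to 12115 in TAC DKO and 9558 to 14404 in TAC CTL hearts, against 9615 to 11855 in Sham DKO and 9409 to 11844 in Sham CTL hearts, and overlapped, although single markers moved both ways. For TAC 5 of the 10 fibroblast markers were called higher and 2 lower in DKO hearts, and 4 higher and 2 lower in CTL hearts. Of the smooth muscle and pericyte markers 5 were called higher in DKO and 2 in CTL hearts, and of the endothelial markers 0 were called in DKO hearts and 1 was called lower in CTL hearts. The part of these markers in the Ace result was not tested. The 11 cardiomyocyte markers summed to 127008 to 143609.7 in TAC DKO and 128814 to 153044 in TAC CTL hearts, below the 154582 to 166227 of Sham DKO and the 155131 to 168753 of Sham CTL hearts. For TAC 1 of these 11 was called higher and 4 lower in DKO hearts, and 0 higher and 3 lower in CTL hearts.

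The genes most like Ace were found among 14556 probes above background by the correlation of log2 values. Over the 20 arrays these were Col8a1, a chain of a short collagen of vessel walls (r = 0.962, rho = 0.958), Bgn, the matrix proteoglycan biglycan (r = 0.936, rho = 0.904), and Dclk3 (r = 0.933, rho = 0.913). As TAC and sham arrays form separate clusters, r was also taken within each. For Col8a1 it was 0.887 over 12 TAC arrays and 0.697 over 8 sham arrays, for Bgn 0.802 and 0.372, and for Dclk3 0.805 and 0.412. Without the 2 arrays farthest from the median of Ace, r over 10 TAC and 6 sham arrays was 0.826 and 0.966 for Col8a1, 0.765 and 0.511 for Bgn, and 0.708 and 0.243 for Dclk3. Col8a1 ran from 201 to 480 in TAC DKO and from 216 to 560 in TAC CTL hearts, against 122 to 147 in Sham DKO and 112 to 168 in Sham CTL hearts, and did not overlap between TAC and sham. On deviations from the group means, the closest were Slc39a13 (r = 0.881), Col8a1 (r = 0.873) and Bean1 (r = 0.834). These are descriptions of the highest of many correlations over arrays that share the same 20 RNA samples.

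**Figure D3:**
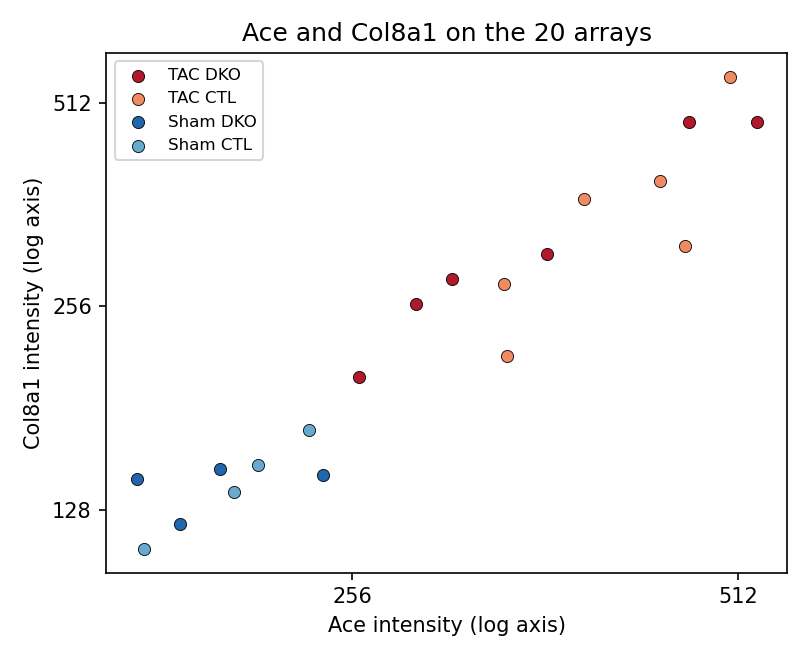
Ace probe 1 intensity (x axis) against Col8a1 intensity (y axis), both on log axes, with 1 point per array coloured by group. The TAC arrays lie at 259 or more for Ace and 201 or more for Col8a1, and the sham arrays at 243 or less and 168 or less.

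Agtr1a, the main type 1 angiotensin II receptor of mouse tissues, lies on chromosome 13 (chr13:30336356-30382867, GRCm38.p6). It was above background on every array, and no comparison was called. Its lowest, median and highest intensities were 618, 869 and 1010.3 in TAC DKO hearts, against 558, 703 and 874 in TAC CTL hearts. The groups overlapped, with 3 of 6 TAC DKO arrays above the highest TAC CTL array. The means were 861 ± 141 and 707 ± 118 (SD, n = 6 each), a difference of 0.28 on the log2 scale (SE 0.15, 95% interval -0.02 to 0.59, limma adjusted p = 0.592). In this comparison 0 of the 9 member probes and 0.144% of all probes were called, and 2 member probes, Agt and Agtr2, both at background, had an unadjusted p under 0.05, as had 8.99% of all probes.

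The Sham DKO hearts had 1106, 782, 618 and 852 for Agtr1a. The Sham CTL hearts had 762, 843, 641 and 484. The groups overlapped, and the highest and lowest of these arrays were Sham DKO mouse 1 and Sham CTL mouse 4. With means of 839 ± 203 and 683 ± 156 (SD, n = 4 each), the difference was 0.30 (SE 0.18, 95% interval -0.07 to 0.67, limma adjusted p = 0.937), and without Sham CTL mouse 4 it was 0.14. Among the members 0 of 9 probes were called and 0 had an unadjusted p under 0.05, where 0.102% of all probes were called and 5.55% had such a p.

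The genotype difference of Agtr1a thus had the same sign and nearly the same size in TAC and in sham hearts, with an interaction of -0.01 (SE 0.23, 95% interval -0.49 to 0.46, limma adjusted p = 0.996). For the interaction 0 of 9 member probes were called, 3 (Ace probe 3, Agtr1b and Agtr2) had an unadjusted p under 0.05, and 0.00221% of all probes were called and 4.71% had such a p. Averaged over sham and TAC hearts, a contrast chosen after seeing the data, Agtr1a was 1.22-fold higher in DKO hearts, by 0.29 (SE 0.12, 95% interval 0.05 to 0.53). This was not called, with an unadjusted p of 0.0192 and a limma adjusted p of 0.459 over all probes, and 0.144% of all probes were called in this contrast. Leaving out 1 array at a time gave 0.21 to 0.36, with the lowest value without Sham CTL mouse 4 (95% interval -0.01 to 0.44) and a value of 0.22 without Sham DKO mouse 1. For Ace probe 1 the averaged difference was -0.13 (95% interval -0.37 to 0.11, limma adjusted p = 0.845).

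After TAC, Agtr1a differed by 0.05 in DKO hearts (95% interval -0.29 to 0.39, limma adjusted p = 0.859) and by 0.06 in CTL hearts (95% interval -0.27 to 0.40, limma adjusted p = 0.835). The sign of these differences depended on the scaling, with -0.14 in DKO and -0.12 in CTL hearts on the deposited values and -0.44 and -0.42 with median centring (limma adjusted p = 0.0448 and 0.0589). None of them was called. The order of the means was TAC DKO, Sham DKO, TAC CTL and Sham CTL, and no neighbours in it differed beyond their spread.

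**Figure D4:**
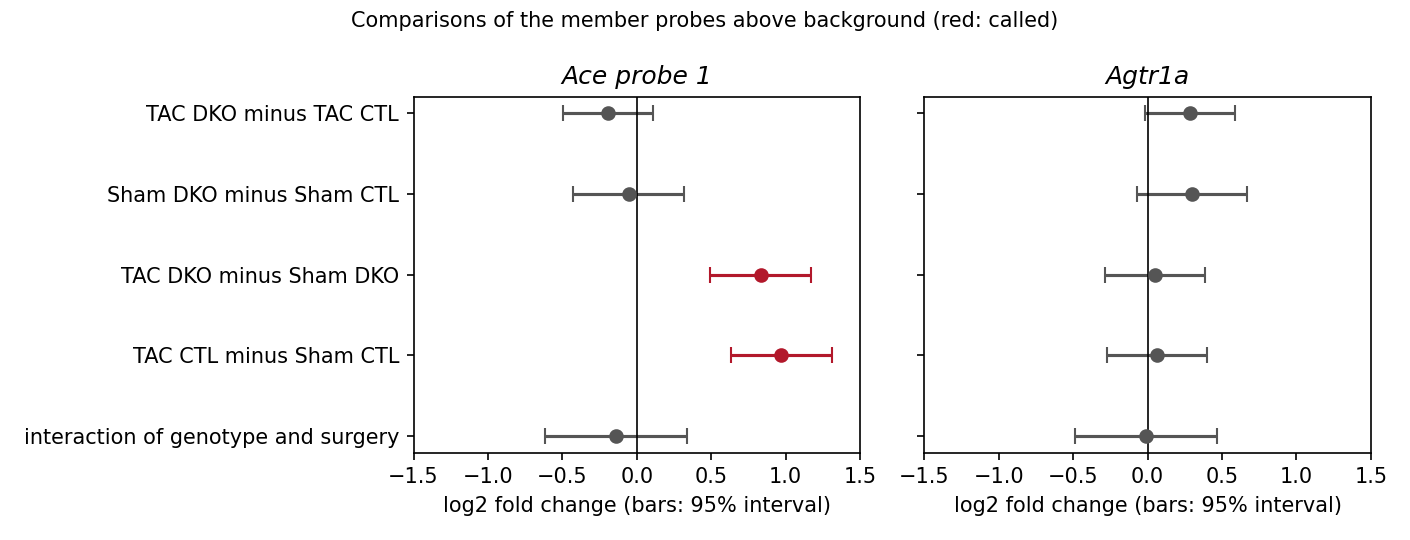
Log2 fold changes of Ace probe 1 (left) and Agtr1a (right) with 95% intervals in 5 comparisons, with called differences in red. For Ace the TAC differences of 0.83 in DKO and 0.97 in CTL hearts are called, and for Agtr1a every interval includes 0.

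The genes most like Agtr1a by log2 values were Tpmt, a thiopurine methyltransferase (r = 0.754, rho = 0.666), the nuclear receptor Rorb (r = 0.703, rho = 0.692) and Ifngr2, a chain of the interferon gamma receptor (r = 0.701, rho = 0.677), over 20 arrays. Within TAC and within sham arrays r was 0.735 and 0.768 for Tpmt, 0.807 and 0.611 for Rorb, and 0.687 and 0.721 for Ifngr2. Without the 2 arrays farthest from the median of Agtr1a, r was 0.715 and 0.496 for Tpmt. It was 0.663 and 0.059 for Rorb, and 0.663 and 0.667 for Ifngr2. Leaving out extreme arrays narrows the range and can by itself lower r. Rorb ran from 71 to 83.6 in Sham DKO against 54.3 to 57.2 in Sham CTL hearts. In TAC DKO hearts it ran from 71.6 to 108, against 50.1 to 68.4 in TAC CTL hearts. Its r within sham and within TAC arrays therefore pools genotypes that did not overlap in Rorb. On deviations from the group means, the genes closest to Agtr1a were Ap3b1 (r = 0.842), Uty (r = 0.824) and Colca2 (r = 0.774).

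Agt, the precursor of the angiotensins, lies on chromosome 8 (chr8:124556587-124569706, GRCm38.p6) and is known as a liver product. Its probe exceeded background on 0 of 20 arrays, with 44.1 to 51.8 in TAC DKO and 47.1 to 56.2 in TAC CTL hearts, against 47.1 to 54.6 in Sham DKO and 47.2 to 57.2 in Sham CTL hearts. After the joint normalization the groups overlapped in every comparison, but on the deposited values TAC and sham hearts did not overlap in either genotype. Its promoter window is shown as the counterpart of Ace start 1, since it holds 1 CG. It covers chr8:124569657-124569956 on the minus strand.
Agt start: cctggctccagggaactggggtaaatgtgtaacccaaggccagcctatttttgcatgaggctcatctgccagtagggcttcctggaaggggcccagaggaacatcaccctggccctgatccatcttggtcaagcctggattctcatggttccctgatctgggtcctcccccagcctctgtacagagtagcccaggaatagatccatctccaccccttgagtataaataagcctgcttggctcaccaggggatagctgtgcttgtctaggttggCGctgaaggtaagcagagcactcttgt
The windows of Agtr1b and Agtr2 held 5 CG each, reached by 62.0% of all windows, and those of Adra1b held 3 and 28. RefSeq windows were matched for 6 of the 8 genes, Agtr1a and Adra1a being the others.

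Agtr1b, the minor mouse type 1 receptor, lies on chromosome 3 (chr3:20314473-20367177), and its probe was above background on 0 of 20 arrays. It ran from 38.7 to 42.7 in TAC DKO hearts, against 45.6 to 53.6 in Sham DKO hearts. These groups did not overlap (limma adjusted p = 0.00121), but on the deposited values they did and the sign of the difference turned, so no direction is read from it. In TAC CTL hearts it ran from 40.9 to 45.4, against 40.7 to 51.1 in Sham CTL hearts. The CTL groups thus overlapped, but on the deposited values they did not.

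Agtr2, the type 2 receptor, lies on chromosome X (chrX:21484624-21488833). It was above background on 1 of 6 TAC DKO and 2 of 6 TAC CTL arrays, against 1 of 4 Sham DKO and 0 of 4 Sham CTL arrays. Its range was 52.7 to 60.1 in TAC DKO and 56.7 to 72.5 in TAC CTL hearts, against 53 to 61.2 in Sham DKO and 48.6 to 56.1 in Sham CTL hearts. The CTL groups did not overlap (limma adjusted p = 0.0354), whereas the DKO groups did (limma adjusted p = 0.778). On the deposited values neither pair of groups overlapped, and the differences were 0.25 in DKO and 0.50 in CTL hearts. The interaction was not called (limma adjusted p = 0.939).

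Adra1b, the alpha-1B adrenergic receptor, which signals through Gq proteins, lies on chromosome 11 (chr11:43774605-43901250). Adra1b probe 1 was above background on 2 of 6 TAC DKO and 0 of 6 TAC CTL arrays, against 3 of 4 Sham DKO and 4 of 4 Sham CTL arrays. It ran from 49.4 to 64.1 in TAC DKO and from 49.1 to 58.2 in TAC CTL hearts, against 59.7 to 70.5 in Sham DKO and 60.3 to 65.9 in Sham CTL hearts. The CTL groups did not overlap (limma adjusted p = 0.0183), the DKO groups did (limma adjusted p = 0.047), and on the deposited values the groups of both genotypes overlapped and the differences were 0.044 in DKO and 0.011 in CTL hearts (limma adjusted p = 0.58 and 0.889). Adra1b probe 2 ran from 47.2 to 59.8 in TAC DKO and from 48.9 to 60 in TAC CTL hearts. In Sham DKO hearts it ran from 48.4 to 61.8 and in Sham CTL hearts from 51.3 to 55.9. After the joint normalization its groups overlapped in every comparison, but on the deposited values TAC CTL and Sham CTL hearts did not. At an adjusted p under 0.05 with no limit on the fold, 5 member probes passed for TAC in DKO hearts, against 28% of all probes, and 3 passed in CTL hearts, against 22%.

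Over the 9 member probes the median log2 fold change was 0.0052 between TAC DKO and TAC CTL and 0.016 between Sham DKO and Sham CTL hearts, and over all probes it was -0.0006 and -0.0030. For TAC it was -0.03 in DKO and 0.06 in CTL hearts, against 0.02 and 0.01 over all probes.

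The other genes of the renin-angiotensin system were read from a list of 22, of which 19 had a probe and 11 were above background by their brightest probe. In the genotype comparisons and the interaction 0 of 19 were called, with 2 genes at an unadjusted p under 0.05 in TAC hearts and 0 in sham hearts, shares to be read against the 8.99% and 5.55% of all probes. For TAC 1 gene was called higher and 1 lower in each genotype, where 6.74% of all probes were called in DKO and 5.17% in CTL hearts. The median log2 fold change over the list was 0.15 in DKO and 0.08 in CTL hearts, against 0.04 and 0.03 over all genes. The shares given for this list and the next are over all probes, of which 37.1% lay above background. Both lists take the brightest probe of a gene, so these are not shares of like probes. Agtrap, which codes for a protein that binds the type 1 receptor and is known to reduce its signalling, was the gene called lower. It had a lowest, median and highest value of 226, 256 and 402 in TAC DKO hearts, against 492, 547, 521 and 586 in Sham DKO hearts. In TAC CTL hearts it had 258, 289 and 378, against 474, 526, 498 and 591 in Sham CTL hearts. All TAC arrays were below all sham arrays of their genotype. The differences were -0.91 in DKO (SE 0.14, limma adjusted p = 3.05e-05) and -0.80 in CTL hearts (SE 0.14, limma adjusted p = 0.000177).

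Prep, a prolyl endopeptidase that can cut angiotensin peptides, was called higher by its brightest probe, by 0.61 in DKO and 0.66 in CTL hearts. Its second probe moved the other way, by -1.11 and -0.97, so the gene has no single direction here. On the deposited values the first probe had 0.43 in DKO and 0.49 in CTL hearts and was not called, nor was it with median centring, without Sham DKO mouse 3 or TAC DKO mouse 1 in DKO hearts, or without Sham CTL mouse 4 in CTL hearts (0.57, 0.58 and 0.54). Atp6ap2, the (pro)renin receptor, had a mean of 1679.7 ± 288 in TAC DKO hearts (SD, n = 6) and of 1285 ± 71.6 in Sham DKO hearts (SD, n = 4) by its brightest probe. This was 1.29-fold higher (limma adjusted p = 0.0172) and so below the fold needed for a call, and in CTL hearts the difference was 0.28 (limma adjusted p = 0.0887). Its other 3 probes had -0.25 to 0.10 in DKO hearts, and none was called. Mas1, the receptor for angiotensin-(1-7), was near background. Ren1 was not analysed here.

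**Figure D5:**
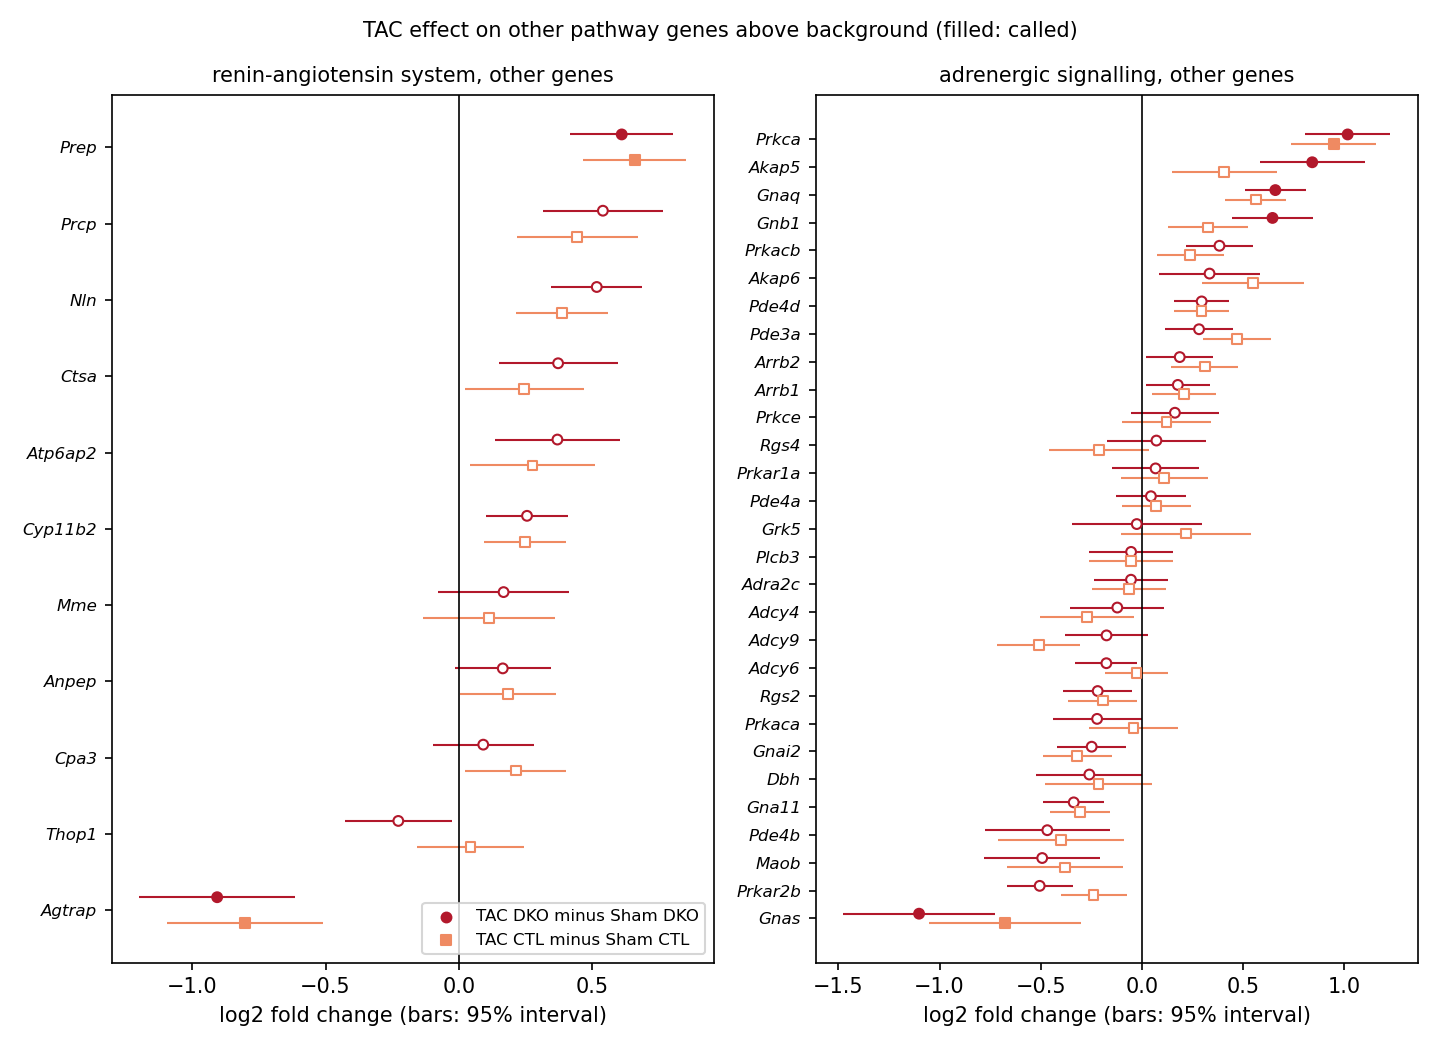
Log2 fold changes for TAC, with 95% intervals, of the brightest probe of 11 other renin-angiotensin genes (left) and 29 other adrenergic signalling genes (right) above background, for DKO (circles) and CTL hearts (squares), filled where called. Agtrap lies at -0.91 and -0.80 and Prkca at 1.02 and 0.95, and the second probe of Prep, not drawn, fell.

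The list of other adrenergic signalling genes held 46, of which 39 had a probe and 29 lay above background. Again 0 of 39 were called in the genotype comparisons and the interaction. An unadjusted p under 0.05 was found for 3 genes in TAC hearts and 5 in sham hearts, against 8.99% and 5.55% of all probes. For TAC 4 genes were called higher and 1 lower in DKO hearts, and 1 higher and 1 lower in CTL hearts. Over all probes the shares called were the same 6.74% and 5.17%. In a fit limited to the 19590 probes with a group mean above background, 3064 were called in DKO and 2349 in CTL hearts. The list medians were -0.03 and -0.05, against 0.04 and 0.03 over all genes. Prkca, protein kinase C alpha, acts downstream of Gq-coupled receptors. Its brightest probe averaged 428 ± 48.5 in TAC DKO and 211 ± 21.5 in Sham DKO hearts, a difference of 1.02 (limma adjusted p = 7.43e-08), and 381 ± 36.1 in TAC CTL and 199 ± 32.8 in Sham CTL hearts, a difference of 0.95 (limma adjusted p = 3.06e-07). With median centring these differences were 0.56 and 0.49, and neither was called. A second Prkca probe had 0.49 in each genotype (1.40-fold), below the fold needed for a call.

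Gnas, the stimulatory G protein alpha subunit to which beta receptors couple, was called lower by its 2 brightest of 10 probes, and the other 8 had -0.56 to 0.11 in DKO and -0.52 to 0.08 in CTL hearts, with none called. Gnas probe 1 averaged 468 ± 106 in TAC DKO and 985 ± 34.8 in Sham DKO hearts, a difference of -1.10 (limma adjusted p = 6.01e-05). In CTL hearts the means were 543 ± 122 after TAC and 874 ± 229 after sham surgery, a difference of -0.68 (limma adjusted p = 0.0086), and -0.58 without Sham CTL mouse 1 or without TAC CTL mouse 1, when it was not called. Without Sham CTL mouse 4 it was -0.90. In DKO hearts Akap5, an anchoring protein of protein kinase A, was called higher by 0.84. The brightest probe of Gnaq, the Gq alpha subunit, was called higher by 0.66 and Gnb1, a G protein beta subunit, by 0.65. In CTL hearts these 3 had differences of 0.41, 0.56 and 0.33, with limma adjusted p = 0.0209, 3.72e-06 and 0.0149. They were not called there only because the fold changes were below the fold needed. The interaction was called for none of the 3. In DKO hearts the deposited values gave 0.49 for Gnaq and 0.47 for Gnb1, and median centring gave 0.54 for Akap5, 0.18 for Gnaq and 0.17 for Gnb1, none of which was called. The Gnas and Agtrap calls held under both scalings in both genotypes. A second Gnaq probe, also above background, had -0.48 in DKO and -0.43 in CTL hearts (limma adjusted p = 0.000112 and 0.000474). Its TAC and sham groups did not overlap in either genotype, though it was below the fold needed for a call. Gnaq thus has no single direction here. The other 3 Gnaq probes had -0.09 to 0.16 in DKO hearts. The only other adrenergic receptor with a probe on this list, Adra2c, was near background and not called in any comparison.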

How the data were processed

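Left ventricular RNA of 20 mice was hybridised to Illumina bead arrays. The authors processed the arrays in GenomeStudio 2010.3 and deposited linear intensities, with background and normalization options not given in the sources used here. Sorted values were equal (within 0.2%) for at least 97.57% of probes among sham and 99.91% among TAC arrays, but for at most 0.413% between them, so the 2 sets had been quantile normalized apart. The number of arrays limits the precision.

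For the present report log2 was taken of the deposited intensities, with no constant, followed by quantile normalization across all 20 arrays. The limma package (3.58.1, R 4.3.3) was used to fit group means at 45281 probes, with Benjamini-Hochberg adjustment over all of them. Calls required a fold change over 1.5 at an adjusted p under 0.05. Means and SD are of normalized intensities. Symbols came from the platform annotation (34885 probes name 1 gene), and coordinates and windows from RefSeq (GRCm38.p6). For lists the brightest probe of a gene was used. Probes named outside the members were every listed gene with a call, a set of receptors listed with the members, and for the 2 bright members the 3 most correlated probes of each kind. The other 4 members were at background, and their correlations are not given. The fit was tested on simulated data, in which every changed probe was brighter than the dim member probes. The separate normalization sets were not simulated, so that test covers neither. The members and lists were chosen with earlier results of these data known. Alternatives were other scalings, an added constant of 32, a filter on dim probes, other variance models, array weights, fits of 2 groups, no fold limit, a replicate block and the omission of each array.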

Additional observations from a re-analysis of the deposited data

Results flagged for a closer look

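Among 72 sets of 4 or 6 arrays tested for a single array far from the rest, 2 were marked, where chance marks about 1 in 20. Both were the array of Sham CTL mouse 4, in genes of the adrenergic list. Gnas probe 1 had 534 there and 947 to 1028 on the other 3 Sham CTL arrays. Gnb1 had 298 there and 382 to 387 on the others. No group of a member probe was marked.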

How the results depend on the processing

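The Ace difference after TAC kept its direction under every alternative run in both genotypes, and was called under all of them except median centring. Under median centring 0 member probes were called for TAC in either genotype. With no further normalization 2 were called in DKO hearts (Ace probe 3 at 0.75 joined Ace probe 1). In that setting 3701 of 45281 probes were called, and the median difference over all probes was 0.29. With adjusted p alone 5 were called in DKO and 3 in CTL hearts, against 28% and 22% of all probes. No alternative called a member between genotypes or in the interaction.

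Signs turned for small differences. With no further normalization the TAC differences were 0.18 in DKO and 0.27 in CTL hearts for Agt, 0.047 and 0.26 for Agtr1b, 0.044 and 0.011 for Adra1b probe 1, and -0.14 and -0.12 for Agtr1a, and in DKO hearts 0.25 for Agtr2 and 0.22 for Adra1b probe 2. Median centring gave -0.44 in DKO and -0.42 in CTL hearts for Agtr1a. With array weights Agtr1a had -0.028 for TAC in CTL hearts and 0.084 for the interaction, Ace probe 2 had 0.025 between genotypes in sham hearts, and Adra1b probe 2 had -0.014 in TAC hearts. The genotype effect averaged over sham and TAC was chosen after seeing the data. It is the mean of the sham and TAC genotype differences and so another quantity, not another processing. For Ace probe 2 (0.061) and Agtr2 (-0.019) its sign was opposite to the sham value. For Ace probe 3 (-0.013) and Agtr1b (0.0079) it was opposite to the TAC value. In these probes the sham and TAC genotype differences had opposite signs. The cause of the sign changes with scaling and array weights was not tested.

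Omitting 1 array at a time turned the sign of 9 differences. For the genotype in TAC hearts Adra1b probe 2 ran from -0.028 to 0.049. In sham hearts the ranges were -0.085 to 0.0071 for Agt, -0.15 to 0.012 for Ace probe 1, -0.082 to 0.069 for Ace probe 2 and -0.030 to 0.049 for Adra1b probe 1. For TAC, Agtr1a ran from -0.087 to 0.19 in DKO and from -0.090 to 0.18 in CTL hearts, and Agtr2 from -0.064 to 0.0046 in DKO hearts. The Agtr1a interaction ran from -0.15 to 0.14.

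Over all probes 3050 were called for TAC in DKO (1116 higher, 1934 lower) and 2339 in CTL hearts (798 higher, 1541 lower). Median centring gave 4370 (204 higher, 4166 lower) and 4034 (186 higher, 3848 lower), and adjusted p alone 12693 and 9944. Between genotypes 65 probes were called in TAC and 46 in sham hearts, with 143 in TAC hearts at adjusted p alone and 28 in sham hearts with the added constant. For the interaction 1 probe was called (2 with the trended robust variance or the replicate block). Same-numbered DKO and CTL arrays correlated from -0.252 to 0.498 in their deviations. Differently numbered arrays were not compared, so these values cannot show whether the numbers pair the mice. With the replicate block 70 probes were called between genotypes in TAC and 56 in sham hearts, 3564 for TAC in DKO and 2730 in CTL hearts, and the Ace differences were 0.82 and 0.96. For 7 of the 9 member probes signal at background, not the number of arrays alone, limits what can be read.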
